A study of Saccharomyces cerevisiae with 30 samples.

Results

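Genes that lie within 20 kb of a chromosome end were described in budding yeast (Saccharomyces cerevisiae) as it passed through the yeast metabolic cycle. Of the 6255 nuclear protein-coding genes listed with coordinates in the authors' comparison table of time point 2, 258 had their midpoint within 20000 bases of the outermost listed gene boundary of their chromosome. They were spread over all 32 ends of the 16 chromosomes, with 2 to 14 genes at an end. The 630 genes whose midpoints lay 20 to 60 kb from an end were used for comparison. The members were chosen by position among the genes that table lists. The listing differs between the 5 tables, which hold 249, 258, 253, 249 and 247 of the members, and 29 RefSeq genes of the same zone are not in the table of time point 2.

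The libraries came from a wild-type strain (WT) and from yaf9W89A (W89A below), which carries an alanine in place of a tryptophan in Yaf9, both of the CEN.PK122-alpha background and both kept in a chemostat on limiting glucose after a starvation phase. Samples were taken at 5 time points of the cycle in 3 consecutive cycles, which gave 15 libraries of each strain, 10 groups of 3, with 16540627 to 20260295 counts each. The W89A libraries of time points 4 and 5 in the first cycle were placed as in the authors' comparison tables, and the order of their titles is exchanged. No separate cultures were stated, so the strain cannot be told apart from its culture and p-values measure the spread between cycles. The mutation is carried by both the SWR1 and the NuA4 form of Yaf9, so effects through either complex cannot be told apart.

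Yeast telomeres carry the Sir proteins, which deacetylate histones and keep nearby chromatin silent. The histone variant H2A.Z, which the SWR1 complex exchanges into nucleosomes, and the NuA4 acetyltransferase are known to limit the spread of that silent chromatin. Yaf9 is a subunit of both complexes and binds acylated lysines of histones through its YEATS domain. The regions next to the telomeres hold few essential genes and many families that repeat from end to end, among them genes for sugar use, thiamine and vitamin B6 synthesis, metal uptake and the cell wall.

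The promoters below, each from 250 bases before to 50 bases after the annotated start of the coding region, are shown because the genes downstream of them are among those described most closely below, THI5, THI12, GEX2 and MCH2 lower and YJR154W and COS10 higher in W89A. Capitals mark the letters TATAAA, a form of the TATA box, and AGGGG, a form of the stress response element, on either strand, so that TATAAA also shows as TTTATA and AGGGG as CCCCT. Sequence and coordinates were read from the RefSeq genome of build R64, plus strand. THI5 and THI12, at the left ends of chromosomes VI and XIV, share 299 of 300 promoter bases.
THI5, chrVI:12679-12978: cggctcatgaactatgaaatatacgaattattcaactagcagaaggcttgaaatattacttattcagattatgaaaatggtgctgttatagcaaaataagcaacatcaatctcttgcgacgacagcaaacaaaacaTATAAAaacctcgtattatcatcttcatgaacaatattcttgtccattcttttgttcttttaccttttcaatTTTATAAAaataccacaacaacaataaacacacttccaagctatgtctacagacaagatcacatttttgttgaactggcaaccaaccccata
THI12, chrXIV:14582-14881: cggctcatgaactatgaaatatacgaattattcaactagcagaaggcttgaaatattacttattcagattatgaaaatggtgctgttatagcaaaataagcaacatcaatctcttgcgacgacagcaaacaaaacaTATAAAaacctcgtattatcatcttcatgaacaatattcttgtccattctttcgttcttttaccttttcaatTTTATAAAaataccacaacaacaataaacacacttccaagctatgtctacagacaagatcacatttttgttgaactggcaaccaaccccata
GEX2, chrXI:661192-661491: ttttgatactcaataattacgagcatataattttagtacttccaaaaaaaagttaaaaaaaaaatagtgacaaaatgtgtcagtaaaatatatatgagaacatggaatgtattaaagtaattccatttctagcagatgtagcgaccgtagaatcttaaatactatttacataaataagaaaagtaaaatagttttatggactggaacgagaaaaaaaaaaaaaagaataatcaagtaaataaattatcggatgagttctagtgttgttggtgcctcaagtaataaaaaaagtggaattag
YJR154W, chrX:725534-725833: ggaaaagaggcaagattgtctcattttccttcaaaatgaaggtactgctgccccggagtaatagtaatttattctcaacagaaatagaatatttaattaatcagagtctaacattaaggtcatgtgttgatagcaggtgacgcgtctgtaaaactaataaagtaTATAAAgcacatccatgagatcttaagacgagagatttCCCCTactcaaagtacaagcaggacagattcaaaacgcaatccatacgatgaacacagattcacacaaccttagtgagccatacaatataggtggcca
MCH2, chrXI:5857-6156: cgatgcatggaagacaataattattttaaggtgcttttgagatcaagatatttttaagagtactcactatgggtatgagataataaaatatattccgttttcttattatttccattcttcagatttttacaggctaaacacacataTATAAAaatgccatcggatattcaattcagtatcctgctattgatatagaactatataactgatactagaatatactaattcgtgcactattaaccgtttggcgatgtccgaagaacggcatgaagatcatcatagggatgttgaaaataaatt
COS10, chrXIV:779666-779965: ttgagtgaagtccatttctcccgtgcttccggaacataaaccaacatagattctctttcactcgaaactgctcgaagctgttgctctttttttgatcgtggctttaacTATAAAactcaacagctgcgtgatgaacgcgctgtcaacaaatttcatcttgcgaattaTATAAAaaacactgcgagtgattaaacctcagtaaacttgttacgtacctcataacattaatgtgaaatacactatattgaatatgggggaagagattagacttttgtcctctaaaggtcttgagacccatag
TATAAA was found in 55.3% of 257 member promoters, against 45.9% of the 630 promoters 20 to 60 kb inside and 43.9% of 6254 promoters in all. AGGGG was found in 20.2% of member promoters and 21.7% of all. TTACCCG, the site of the insulator-like factor Reb1, was in 1.95% of member promoters, 7.62% of those 20 to 60 kb inside and 6.94% of all. TTAGGG, the site of Tbf1, which binds next to telomeric repeats, was in 5.06% of member promoters and 6.88% of all. Both strands were searched, no motif contains another, and a match describes letters and not a bound site. The promoter of 1 member ran past the chromosome end and was left out.

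Members were transcribed at a low level, and the level rose with the distance from the end. Counts were scaled to 1000000 counts of the normalised library (CPM) and divided by gene length to compare genes. The median over the 258 members was 6.86 CPM per kb, against 35.1 for the genes 20 to 60 kb inside and 39.9 for the 5367 genes farther in. By distance, the median was 1.98 CPM per kb within 5 kb of the end, 4.64 from 5 to 10 kb, 10.9 from 10 to 15 kb and 33.8 from 15 to 20 kb. A mean below 1 CPM was seen in 66 members, or 25.6%, and in 7.46% of the genes 20 to 60 kb inside.

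**Figure D1:**
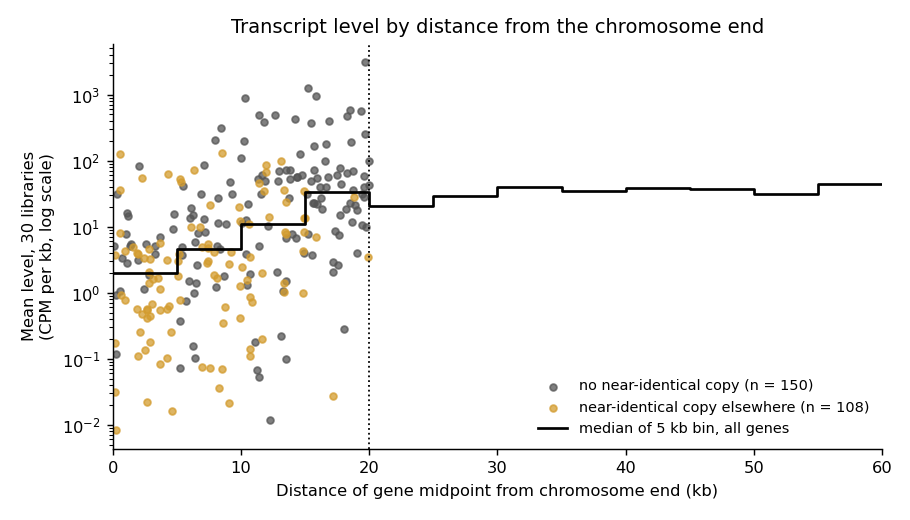
Mean level over the 30 libraries in CPM per kb (log axis) against the distance of the gene midpoint from the chromosome end in kb, with 1 point per member and the step line giving the median of all listed genes in each 5 kb bin. The line climbs from 1.98 within 5 kb to 33.8 at 15 to 20 kb, and members with a near-identical copy lie mostly toward the end.

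Repeated sequence moved with this gradient. A gene elsewhere with at least 95% nucleotide identity over at least 80% of the length was found for 108 members, or 41.9%, but for 2.06% of the genes 20 to 60 kb inside. The median was 2.56 CPM per kb in those 108 members and 15.7 in the other 150. How the counting treated reads that match several copies was not stated, so levels of single copies are uncertain, and the part of this in the low levels was not tested. Among the 150 members without a copy, the median was 5.13 CPM per kb within 5 kb, 7.90 from 5 to 10 kb, 21.7 from 10 to 15 kb and 39.4 from 15 to 20 kb. Counts were made on gene models with the coordinates of the reference strain, and which of the members CEN.PK122 carries was not tested.

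A filter on low counts left 227 of the 258 members for testing. The other 31 were at or near 0 in every library, with at most 14 counts in 1 library, and 20 of them had a near-identical copy. They included 6 of 13 PAU genes, which encode cell wall mannoproteins made without oxygen, and GEX1.

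A small number of members near the inner border carried most of the RNA. JEN1, the lactate and pyruvate permease on the left end of chromosome XI, had the highest level per length, 3073 CPM per kb over all libraries. HXK1, which encodes hexokinase, followed with 1271 CPM per kb, and LYS1, the last enzyme of lysine synthesis, with 958 CPM per kb. JEN1 and HXK1 together made up 35.9% of the summed CPM of all members, and the 10 highest members 64.5%. In WT the summed level of the members was 10797 ± 1191 CPM (SD, n = 3) at time point 2 and 33341 ± 768 CPM at time point 5.

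Fewer members than other genes followed the metabolic cycle in WT. A difference between time points passed the edgeR quasi-likelihood F test (Benjamini-Hochberg adjusted p below 0.05 over all 6256 genes tested) for 130 of 227 members, or 57.3%, where 81.5% of all genes passed. In W89A 115 members, or 50.7%, passed, where 75.5% of all genes did. The median distance between the highest and the lowest group of the 130 WT members was 1.30 on the log2 scale, and 1.16 for all genes called. Members had fewer counts than other genes, with a median of 6.66 CPM against 45.7 CPM 20 to 60 kb inside, and the part of this in their shares was not tested.

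Members that cycled were mostly high late in the cycle. Of the 130, 44 were highest at time point 5, or 33.8%, where 27.7% of all genes called had their peak, and 37 at time point 4, or 28.5% against 17.2%. For 19 the peak was at time point 2, or 14.6% against 31.2%. JEN1 in WT stood at 271, 311 and 494 CPM at time point 2 and at 14813, 10154 and 14654 CPM at time point 4. The lowest library of time point 4 was thus above every library of time point 2, and the group means spanned 5.20 on the log2 scale. FDH1, formate dehydrogenase, had the largest range of the members that peaked at time point 5, 5.91 on the log2 scale. It stood at 27.7, 30.2 and 39.98 CPM at time point 3 and at 2061, 2006 and 1817 CPM at time point 5. HSP33, a member of the Hsp31 family of stress proteins, and ERR2, an enolase-related gene, peaked there as well, with ranges of 4.50 and 4.55. Other members were high early. ZRT1, the high-affinity zinc transporter, ERO1, the oxidase that drives disulfide bond formation, and ADH6, an NADPH-dependent alcohol dehydrogenase, peaked at time point 1, with ranges of 3.20, 2.48 and 2.4. Among members at 10 CPM or more, LYS1 had the largest range of those that peaked at time point 2, 2.46, and DLD3, a D-lactate dehydrogenase, of those that peaked at time point 3, 2.23.

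Between the strains, members were called in both directions at every time point, in shares near those of all genes at most time points. At time point 1, 6 members were higher and 5 lower in W89A, or 4.85% of those tested, where 8.01% of all genes were called, 4.41% higher and 3.6% lower. The share of higher calls among them was 54.5%, and 44.4% with DESeq2's size factors. At time point 2, 18 were higher and 14 lower, or 14.1% against 13.1% of all, of which 8.44% higher and 4.64% lower. Time point 3 had the most, 38 higher and 58 lower, which is 42.3% against 51.1% of all, of which 28.2% higher and 22.9% lower. At time point 4, 11 were higher and 41 lower, 22.9% against 21.3% of all, and at time point 5 11 were higher and 14 lower, 11.0% against 9.51% of all, of which 5.07% higher and 4.44% lower. These p-values came from edgeR quasi-likelihood tests with Benjamini-Hochberg adjustment. The counts of all time points but time point 3 depend on single cycles. Leaving out WT cycle 1 gave 1 call in place of 11 at time point 1 and 12 in place of 32 at time point 2. Leaving out WT cycle 3 gave 26 in place of 52 at time point 4, 7 higher and 19 lower, and leaving out W89A cycle 1 gave 1 in place of 25 at time point 5. Shares of all genes called in these fits were not counted, so whether the falls are particular to the members was not tested.

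The split by direction differed from that of all genes at time points 3 and 4 and on average. Of the members tested, 25.6% were lower and 16.7% higher in W89A at time point 3, where 22.9% and 28.2% of all genes were. At time point 4, 18.1% of the members tested were lower in W89A, where 10.5% of all genes were, and 4.85% were higher, where 10.9% of all were. Over the average of the 5 time points, 66 members (29.1%) were lower and 41 (18.1%) were higher, where 21.7% and 27.1% of all genes were. Either call was made for 47.1% of the members and 48.8% of all genes. The genes 20 to 60 kb inside lay between, with 24.7% lower and 26% higher. The median average log2 fold change was -0.06 over the members and 0.02 over all genes tested. No test of these differences between zones was made, and neighbouring members and near-identical copies are not independent. With members that have a near-identical copy left out, the average counts of lower and higher members lay closer together, as given in the last section. In the authors' deposited tables, members called higher and lower numbered 15 and 11 at time point 1, 21 and 20 at time point 2, 32 and 62 at time point 3, 13 and 42 at time point 4 and 14 and 29 at time point 5. Of all genes listed in the authors' deposited tables, 1088 of 6601 were called at time point 1, 952 of 6600 at time point 2, 2994 of 6592 at time point 3, 1117 of 6578 at time point 4 and 1244 of 6558 at time point 5. Their split into higher and lower was not counted, so the split of the members there cannot be set against it.

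The average treats the 15 libraries of a strain as separate, although the libraries of 1 cycle may share a deviation. With the 5 libraries of a strain and cycle summed, so that a cycle counts once, an alternative chosen after seeing the data, 34 members were higher and 58 lower of 233 tested. These are 14.6% and 24.9%, where 18.1% and 17.8% of all genes were higher and lower. A sum gives more weight to time points of high level. Of the 92 members called there, 86 were among the 107 of the average. Of the members whose average call is given below, 8 lost it. GEX2, DDI2, IRC7 and YAR066W had edgeR adjusted p of 0.068, 0.12, 0.080 and 0.10, and SOR2, SRY1, MAL12 and MAL32 of 0.15, 0.24, 0.97 and 0.65. The log2 fold changes of MAL12 and MAL32 were -0.02 and -0.16 there.

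**Figure D2:**
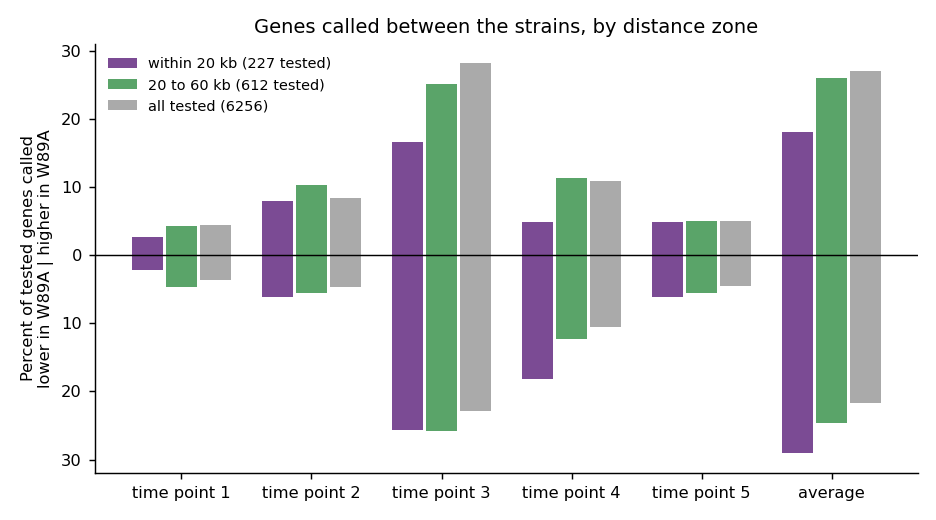
Percent of tested genes called higher (above 0) or lower (below 0) in W89A than in WT at each time point and on average, for genes within 20 kb of an end, genes 20 to 60 kb inside and all genes tested. The bars of the members reach 18.1% lower at time point 4 and 29.1% lower on average, against 10.5% and 21.7% of all genes.

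Members lower in W89A were found in every band of distance, and the most were 10 to 15 kb from the end. Of the 60 members tested from 10 to 15 kb, 28 were lower and 3 higher on average, with a median log2 fold change of -0.25. Of all genes tested, 21.7% were lower and 27.1% higher on average, and no band was tested against these shares. From 15 to 20 kb the counts were 13 lower and 19 higher of 56, with a median of 0.03. Within 5 kb they were 11 lower and 12 higher of 55, with a median of 0.01, and from 5 to 10 kb 14 lower and 7 higher of 56, with a median of -0.06. The 3 members higher at 10 to 15 kb were MAL33, an activator of maltose genes, SRY1, a serine dehydratase, and SGE1, a drug exporter, chosen here after their values were seen. Copies moved with the band. In it, 16 of the 25 tested members with a near-identical copy were lower and 0 higher, and of the 35 without a copy 12 were lower and 3 higher, with a median of -0.13. Leaving out any 1 cycle of either strain gave 22 to 27 lower and 2 to 4 higher.

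**Figure D3:**
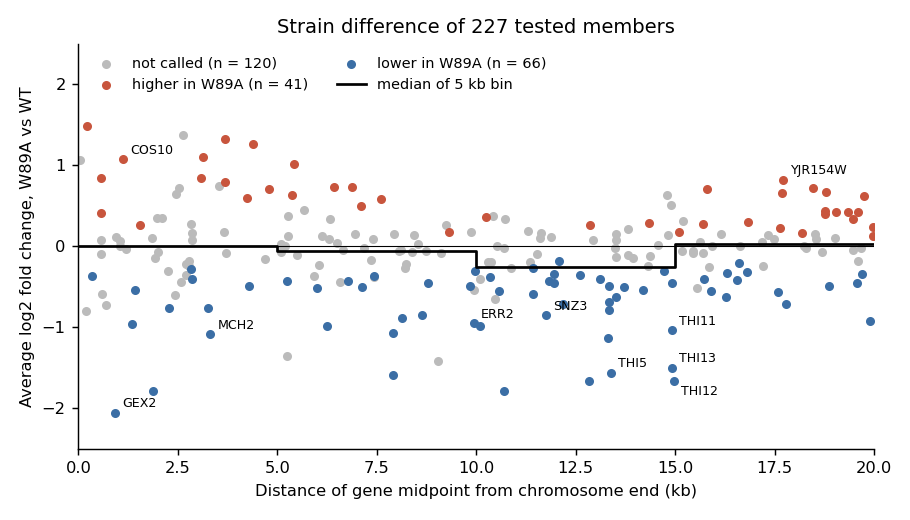
Average log2 fold change between W89A and WT of each of the 227 tested members against its distance from the chromosome end in kb, coloured by call, with the median of each 5 kb bin as a line. Of the 66 lower members 28 lie at 10 to 15 kb, where the line drops to -0.25, and GEX2 is the lowest point at -2.06.

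Calls fell on nearly every end. A member higher on average stood on 22 of the 32 ends and a member lower on 28, both kinds stood on 19, and the left end of chromosome I had none. Of all genes, 27.1% were higher and 21.7% lower on average, and the number of ends that these shares would give was not tested. The left ends of chromosomes XIV and XVI had 5 lower members and 0 higher each, and the right end of chromosome XIV had 2 higher and 0 lower.

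Genes for the synthesis of thiamine and vitamin B6 were lower in W89A. THI5, THI11, THI12 and THI13 encode near-identical enzymes that make the pyrimidine part of thiamine, SNZ2 and SNZ3 the synthase of pyridoxal phosphate, and SNO2 and SNO3 its glutaminase partner. With SNO4, which carries the family name but is 99.4% identical to HSP32 of the Hsp31 family, they form 9 members, all tested. All 9 were lower on average, with a median log2 fold change of -0.85, and all 9 were lower at time point 3, under every left-out library. At time points 4 and 5, 7 were lower, and at time points 1 and 2, 1 and 2 were. None was higher in any of these comparisons. Of all genes tested, 3.6%, 4.64%, 22.9%, 10.5% and 4.44% were lower at time points 1 to 5, and 21.7% on average. Apart from time point 3 and the average, the counts of these 9 genes depend on single cycles. At time point 1 the count was 0 without W89A cycle 2 and 6 without W89A cycle 3, and at time point 2 it was 0 without W89A cycle 1 and 4 without W89A cycle 3. It was 0 without W89A cycle 1 or 2, 1 without WT cycle 1 and 4 without WT cycle 3 at time point 5, and ranged from 5 to 8 at time point 4.

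These 9 genes share sequence, so they are not 9 separate observations. THI12 and THI5 are 99.3% identical, SNZ2 and SNZ3 99.3%, and SNO2 and SNO3 99.7%. SNO3, SNZ3 and THI5 stand in a row on the left end of chromosome VI, and SNO2, SNZ2 and THI12 in the same order on the left end of chromosome XIV. The stretch between SNO and SNZ is 98.5% identical between both ends. Summing each set of copies avoids the split of reads between them. The 4 THI5-type genes summed to 56.5, 41.2 and 72.5 CPM in WT and to 11.5, 10.1 and 16.7 CPM in W89A at time point 3. The highest W89A library was thus below the lowest WT library. At time point 2 the sums were 29.8, 22.9 and 32.9 CPM in WT and 10.04, 12.5 and 26.5 CPM in W89A, where the groups overlapped. SNZ2 and SNZ3 summed to 113, 96.6 and 128 CPM in WT and to 38.1, 39.1 and 40.1 CPM in W89A at time point 3.

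THI12 had the lowest average of the 4, a log2 fold change of -1.66 ± 0.21 (SE, n = 15 and 15 libraries; edgeR adjusted p = 1.2e-06). At time point 3 it stood at 18.8, 16.4 and 26 CPM in WT and at 3.03, 2.88 and 4.95 CPM in W89A, 5.62-fold lower. At time point 2 it stood at 8.04, 7.76 and 9.96 CPM in WT and at 3.26, 2.58 and 8.29 CPM in W89A. Here the third W89A cycle lay within the WT values and the first and second below them. SNZ2 stood at 49.0, 50.6 and 62.8 CPM in WT and at 18.8, 22.3 and 20.6 CPM in W89A at time point 3, and its average log2 fold change was -0.78 ± 0.07 (edgeR adjusted p = 6.6e-09). SNZ2 and SNZ3 were the only members of the group with a strain difference that changed over the cycle apart from SNO4, with edgeR interaction adjusted p of 0.011, 0.0068 and 0.040. Promoters of the THI5 and THI12 pair are those printed above, and each holds TATAAA in 2 stretches.

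GEX2, a glutathione and proton antiporter gene on the right end of chromosome XI, was lower in W89A on average by the most of all tested members. Its midpoint lies 924 bases from the outermost listed gene boundary there, which is 3527 bases from the R64 end. GEX2 lies below the 10 CPM used to name members and was chosen here after its values were seen. It ranged from 8.82 to 17.2 CPM in WT, with a median of 12, and from 0.669 to 6.94 CPM in W89A, with a median of 1.62. All 15 W89A libraries were below all 15 WT libraries. GEX2 was the only member with that separation in this direction, which 4 of all 6256 genes had (0.0639%), and 0 members had the opposite separation, which 5 genes had (0.0799%). Its average log2 fold change was -2.06 ± 0.31 (edgeR adjusted p = 1.1e-05), or 4.16-fold lower. With each cycle summed it was -2.05 ± 0.67 and did not pass (edgeR adjusted p = 0.068). The log2 fold change ranged from -1.98 to -2.22 over the 5 time points, with an edgeR interaction adjusted p of 0.999, and it passed the test on its own at time points 3 and 4. The call of time point 3 was lost without W89A cycle 1 or 2, and that of time point 4 when any 1 cycle other than W89A cycle 3 was left out (edgeR adjusted p = 0.062 to 0.14). Its copy GEX1 on the left end of chromosome III, 99.0% identical, was at 0.03 CPM, so the sum of the pair moves with GEX2. No letters of either searched motif stand in the GEX2 promoter printed above.

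The level of GEX2 differed between the cycles of W89A. It stood at 1.62, 0.669 and 6.94 CPM in cycles 1, 2 and 3 at time point 1 and at 2.34, 1.28 and 6.31 CPM at time point 5. Cycle 3 was the highest at every time point. Without it the average log2 fold change was -3.16. In all, 15 of the 227 tested members (6.61%) were higher in W89A cycle 3 than in both other W89A cycles at all 5 time points, where 117 of all genes (1.87%) and 13 of 612 genes 20 to 60 kb inside (2.12%) were. They were GEX2, THI5, THI12, SNZ3, MCH2, ECM34, HXT15, BDS1, SOR1, SOR2, YEL073C, YOL163W, YDL242W, YER187W and YCR102W-A. The opposite, lower in cycle 3 at all 5 time points, held for 4 members, IRC7, COS2, COS4 and HMLALPHA1 (1.42% of all genes). By the same count, W89A cycle 1 was the highest for 3 members (0.703% of all genes) and the lowest for 2 (0.416%), and W89A cycle 2 the highest for 1 (0.751%) and the lowest for 5 (0.559%). WT cycle 1 was the highest for 5 (1.6%) and the lowest for 5 (1.65%), WT cycle 2 the highest for 2 (1.29%) and the lowest for 2 (1.21%), and WT cycle 3 the highest for 8 (1.42%) and the lowest for 0 (0.879%). Without W89A cycle 3 the average of THI12 was -2.26 and that of THI5 -2.14. With each cycle summed THI12 and THI5 still passed, at -1.71 ± 0.43 and -1.56 ± 0.36 (edgeR adjusted p = 0.033 and 0.016), and MCH2 at -1.03 ± 0.27 (edgeR adjusted p = 0.018).

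MCH2, which encodes a relative of monocarboxylate permeases, was lower in W89A by 2.12-fold on average, a log2 fold change of -1.08 ± 0.18 (edgeR adjusted p = 1.8e-05). Its mean of 7.14 CPM is also below the naming limit, and it was chosen after its values were seen. It ranged from 5.72 to 15.7 CPM in WT, with a median of 8.74, and from 1.79 to 9.22 CPM in W89A, with a median of 3.67. The groups overlapped over all libraries, and at time points 2 to 5 the 3 W89A libraries lay below the 3 WT libraries.

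**Figure D4:**
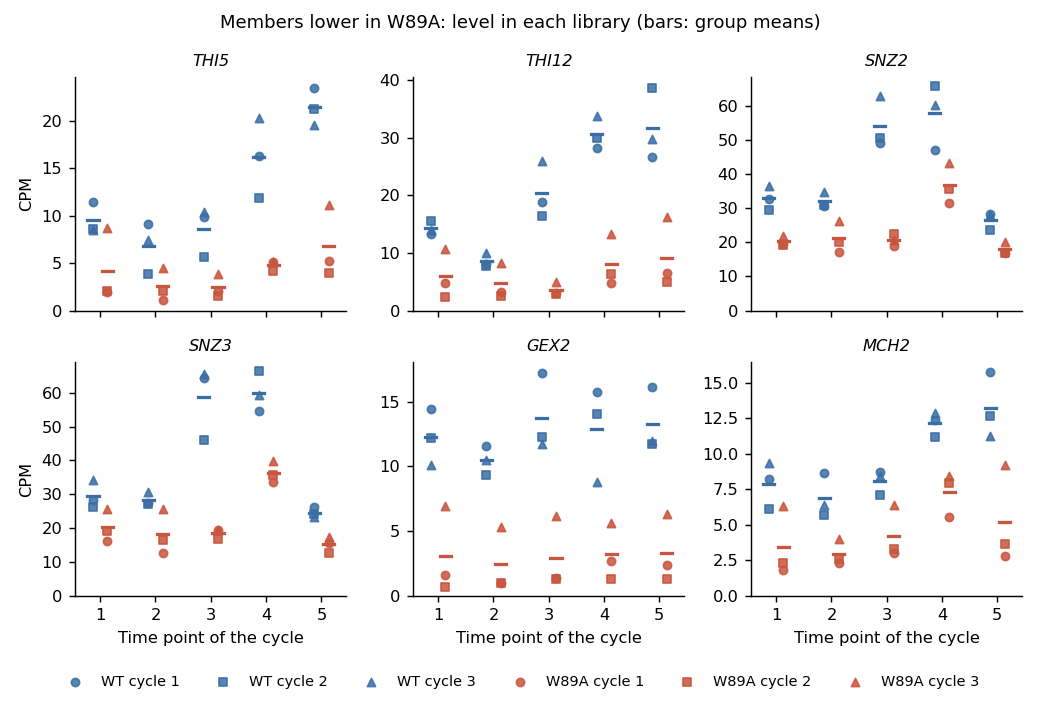
CPM (linear axis from 0) of THI5, THI12, SNZ2, SNZ3, GEX2 and MCH2 in each library by time point, with WT in blue, W89A in red, symbols for cycles 1 to 3 and bars for group means. For GEX2 all W89A points, at most 6.94 CPM, lie below all WT points, at least 8.82 CPM, and the triangles of W89A cycle 3 are the highest red points of GEX2 at every time point.

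Other members lower on average included enzymes of minor metabolism. FDC1, a decarboxylase of phenylacrylic acids, was lower by 0.49 ± 0.05 on the log2 scale (edgeR adjusted p = 6.1e-08) and was called at time points 1 to 4, at time point 1 not without WT cycle 1, W89A cycle 1 or W89A cycle 2. At time point 2 it stood at 38.8, 35.4 and 34.7 CPM in WT and at 23.4, 22 and 20.1 CPM in W89A, without overlap. AAD4, a putative aryl-alcohol dehydrogenase, had an average of -0.62 ± 0.09, and its relative AAD14 -0.33 ± 0.07. DDI2 and DDI3, near-identical cyanamide hydratase genes that stand next to SNO2 and SNO3, had averages of -0.59 ± 0.16 and -0.49 ± 0.12. The call of DDI2 was lost without W89A cycle 2 (edgeR adjusted p = 0.055). The enolase-related ERR2 and ERR3 had averages of -0.95 ± 0.19 and -0.77 ± 0.13, with the largest difference at time point 4. There ERR2 stood at 27.6, 19.2 and 36.6 CPM in WT and at 8.85, 7.59 and 3.36 CPM in W89A. With the title order of the W89A libraries the time point 4 differences of ERR2 and ERR3 were -1.0 and -0.81 and did not pass (edgeR adjusted p = 0.24 and 0.16). Summed as a group of copies, the ERR genes were at 151 ± 39.7 CPM in WT and 53.8 ± 13.4 CPM in W89A at time point 4 (SD, n = 3). The sums were 35.2 ± 13.2 and 43.0 ± 8.03 CPM at time point 1. At time point 5 they were 308 ± 41.0 and 196 ± 85.5 CPM, and the libraries of both time points overlapped. VTH1 and VTH2, near-identical relatives of a vacuolar sorting receptor, were at 17.4 ± 2.25 CPM summed in WT and 8.86 ± 2.09 CPM in W89A at time point 4 (SD, n = 3). Their sums were 17.2 ± 0.823 and 9.22 ± 0.622 CPM at time point 2 and 11.8 ± 1.36 and 9.53 ± 0.447 CPM at time point 3. The libraries overlapped at time point 1, at 12.9 ± 2.65 and 8.91 ± 1.54 CPM, and at time point 5, at 9.13 ± 2.01 and 8.54 ± 2.79 CPM. CSS3 and YEL073C complete the 10 lowest members named, with averages of -0.56 ± 0.07 and -0.50 ± 0.08.

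Members higher in W89A came from several families. YJR154W, of unknown function, had the highest average among members at 10 CPM or more with 1 sign at all 5 time points, 0.83 ± 0.13 (edgeR adjusted p = 8.5e-06). At time point 3 it stood at 8.94, 16.2 and 12 CPM in WT and at 31.1, 30.8 and 37.8 CPM in W89A, without overlap. At time point 5 it stood at 5.09, 10.3 and 6.99 CPM in WT and at 9.44, 10.03 and 11.6 CPM in W89A, where the groups overlapped. It lies on the right end of chromosome X, as does THI11, which was lower. IMD2, an enzyme of guanine nucleotide synthesis, averaged 0.73 ± 0.10 and stood at 45.1, 33.8 and 35.8 CPM in WT and at 92.9, 105 and 68.7 CPM in W89A at time point 4. DIA1, linked to invasive growth, averaged 0.65 ± 0.09, IRC7, a cysteine beta-lyase, 0.70 ± 0.18, and TOG1, an activator of oleate genes, 0.43 ± 0.07. DIA1 and IRC7 each overlap another listed gene, and strand was not stated for the counts. YHR214W-A and YAR066W, both with a near-identical copy, averaged 0.67 ± 0.10 and 0.58 ± 0.15.

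Among metal genes, 3 of 6 tested were higher on average and GEX2 was lower, where 27.1% of all genes were higher and 21.7% lower. No count of a family was tested against these shares. ENB1, the transporter of iron bound to enterobactin, averaged 0.44 ± 0.05 (edgeR adjusted p = 3.2e-07). At time point 3 it stood at 57.3, 59.6 and 49.3 CPM in WT and at 112, 101 and 87.5 CPM in W89A. ZRT1 averaged 0.41 ± 0.15 and FET4, a low-affinity iron transporter, 0.18 ± 0.05. ZRT1 stood at 14.5, 19.4 and 18.4 CPM in WT and at 30.7, 33.1 and 78.1 CPM in W89A at time point 3. ARN1, a siderophore transporter, and FRE2, a ferric reductase, had averages of -0.18 ± 0.08 and -0.04 ± 0.11 that did not pass the test.

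The maltose loci moved in both directions. MAL13 and MAL33, the activators, averaged 0.42 ± 0.05 and 0.36 ± 0.08, and MAL12 and MAL32, the near-identical maltases, -0.40 ± 0.16 and -0.43 ± 0.16, calls that were lost with each cycle summed. The permeases MAL11 and MAL31 had averages of -0.08 ± 0.16 and 0.15 ± 0.09 that did not pass. MAL13 stood at 46.1, 55.3 and 47.8 CPM in WT and at 113, 102 and 85.8 CPM in W89A at time point 3, where MAL12 stood at 136, 98.5 and 171 CPM in WT and at 41.2, 41.8 and 30.8 CPM in W89A. HXT9, a hexose transporter, averaged -0.92 ± 0.15, and SOR2, a sorbitol dehydrogenase, -0.36 ± 0.15. In all, 2 of 13 tested sugar genes were higher and 4 lower, beside 27.1% and 21.7% of all genes.

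Of the COS genes, which encode membrane proteins that sort cell surface proteins for turnover, 3 of 10 were higher on average and 0 lower, beside 27.1% and 21.7% of all genes. The midpoint of COS10 lies 1125 bases from the outermost listed gene boundary on the right end of chromosome XIV. That boundary is 2730 bases from the R64 end. COS10 lies below the 10 CPM used to name members and was chosen for closer description after its values were seen. It ranged from 0.844 to 2.98 CPM in WT, with a median of 2.16, and from 1.60 to 6.57 CPM in W89A, with a median of 3.95. Its average was 1.08 ± 0.18 (edgeR adjusted p = 2.7e-05), and WT and W89A libraries overlapped over the whole set. COS2 averaged 0.84 ± 0.15 and COS5 0.41 ± 0.08. The most abundant, COS6, had an average of 0.13 ± 0.06 that did not pass. COS2 and COS3 share all 300 promoter bases and have identical genes, and COS3 had an average of -0.17 ± 0.16, so which copy the COS2 reads came from is uncertain.

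The repeat families nearest the telomere and the silent mating cassettes were mostly at low levels. Of 8 YRF1 genes, which encode the helicase of the subtelomeric Y' element, 7 were tested and YRF1-7 was lower, with an average of -0.40 ± 0.09. It ranged from 14.6 to 23.7 CPM in WT and from 11.1 to 19.99 CPM in W89A, while the mean of each other YRF1 gene was at most 2.90 CPM. Of 13 PAU genes, PAU15, PAU21 and PAU22 were lower among the 7 tested, where 21.7% of all genes were lower, all with means of at most 2.03 CPM. The 3 listed genes of the silent mating cassettes had means of 0.263 to 1.54 CPM and 0 were called in either direction in any strain comparison (edgeR; adjusted p on average 0.260 to 0.736). PHO11, PHO12 and PHO89 of phosphate uptake likewise had 0 calls on average, with adjusted p of 0.067 to 0.133. Of 89 tested members without a gene symbol, 14 were higher and 21 lower, again beside 27.1% and 21.7% of all genes.

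The strain difference changed between time points for 52 members, or 22.9%, by the edgeR interaction test, where 41.9% of all genes passed. Leaving out WT cycle 1 gave 31. The 10 members with the smallest p were RMD6, MHT1, JEN1, LYS1, COX14, AGP3, NRE1, MAL13, MMP1 and HYR1. In 8 members, RMD6, DLD3, HXK1, SRY1, JEN1, MHT1, MMP1 and ERO1, W89A was higher than WT at 1 time point or more and lower at another, each with its own call. How many of all genes had such opposite calls was not counted, so the 8 cannot be set against a share of all genes. The higher call of HXK1 at time point 2 was lost without WT cycle 1 or 2 and without each W89A cycle (edgeR adjusted p = 0.057 to 0.21). It was also lost with title order, with DESeq2's size factors and with the cycle number as a term (edgeR adjusted p = 0.25, 0.0505 and 0.055). The same held with the 2 W89A libraries of uncertain placement left out (edgeR adjusted p = 0.054).

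JEN1 was higher in W89A at time points 1 and 2 and lower at time point 3. At time point 1 it stood at 796, 1661 and 1826 CPM in WT and at 3077, 3973 and 3822 CPM in W89A, 2.54-fold higher (edgeR adjusted p = 0.016). At time point 3 it stood at 4034, 4556 and 3965 CPM in WT and at 1279, 1348 and 973 CPM in W89A, 3.49-fold lower (edgeR adjusted p = 8.1e-05). At time point 5 the values were 12767, 12935 and 13732 CPM in WT and 11942, 10911 and 9596 CPM in W89A, and the difference did not pass (edgeR adjusted p = 0.62). The groups did not overlap at any time point, and the sign turned between time points 2 and 3. The calls of time points 1 and 2 were lost without WT cycle 1, where the log2 fold changes were 1.06 and 1.19 (edgeR adjusted p = 0.11 and 0.067) in place of 1.34 and 1.36. The call of time point 1 was also lost without W89A cycle 2 (log2 fold change 1.27, edgeR adjusted p = 0.070), and that of time point 2 without W89A cycle 3 (0.75, edgeR adjusted p = 0.12).

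LYS1 and AGP3 differed most at time point 3. LYS1 stood at 667, 657 and 513 CPM in WT and at 2773, 2973 and 2654 CPM in W89A, a log2 fold change of 2.19 ± 0.24 (edgeR adjusted p = 1.1e-07). WT had its highest LYS1 level at time point 2 and W89A at time point 3. AGP3, a low-affinity amino acid permease, stood at 168, 145 and 137 CPM in WT and at 18.5, 21 and 26.7 CPM in W89A, a log2 fold change of -2.76 ± 0.30 (edgeR adjusted p = 1.2e-07). At time point 2 AGP3 values overlapped, with a log2 fold change of 0.01 ± 0.28. MHT1, which uses S-methylmethionine to make methionine, stood at 184, 156 and 173 CPM in WT and at 36.3, 44.6 and 72.8 CPM in W89A at time point 3. At time point 5 it was higher in W89A, at 70.8, 69.8 and 49.9 CPM against 42.8, 41.5 and 44.2 CPM (edgeR adjusted p = 0.049). MMP1, the permease of the same compound next to MHT1, had log2 fold changes of -0.94 ± 0.19 at time point 3 and 0.74 ± 0.19 at time point 4.

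RMD6, needed for sporulation, had the smallest interaction p (edgeR adjusted p = 5.6e-06). It stood at 62.3, 62.2 and 49.96 CPM in WT and at 28.5, 26.2 and 31.1 CPM in W89A at time point 3. At time point 5 it stood at 15.1, 14.9 and 18.5 CPM in WT and at 28.9, 23.5 and 22.1 CPM in W89A, a call lost without WT cycle 1 or W89A cycle 1. Its WT values thus covered a wider span over the cycle than its W89A values, from 14.9 to 62.3 CPM against 22.1 to 46.6 CPM. COX14, an assembly factor of cytochrome c oxidase, and HYR1, a peroxidase and sensor of oxidants, were lower at time point 3 by 1.57 ± 0.16 and 1.32 ± 0.20 on the log2 scale.

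**Figure D5:**
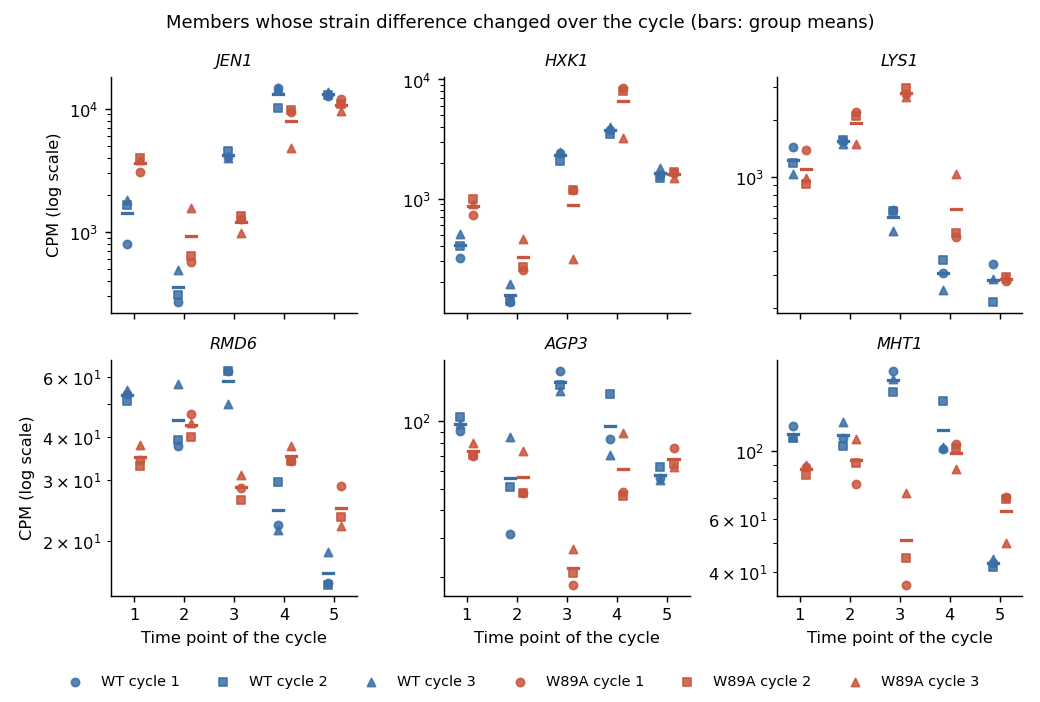
CPM (log axis) of JEN1, HXK1, LYS1, RMD6, AGP3 and MHT1 in each library by time point, with WT in blue, W89A in red, symbols for cycles 1 to 3 and bars for group means. JEN1 crosses from higher to lower in W89A between time points 2 and 3, and the W89A cycle 3 triangle at time point 4 stands apart at 4775 CPM.

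The W89A cycle 3 library of time point 4 stood apart from the other W89A libraries of that time point in the abundant members. JEN1 was at 9441 and 9789 CPM in cycles 1 and 2 and at 4775 CPM in cycle 3. HXK1 was at 8505, 8039 and 3201 CPM, and FDH1 at 1167, 1088 and 69.5 CPM. LYS1 was at 480, 503 and 1028 CPM. The summed level of the members there was 29670 ± 8388 CPM (SD, n = 3), with 19984 CPM in cycle 3, where no other group had an SD over 3942 CPM. Without that library the members called at time point 4 were 14 higher and 40 lower, and the log2 fold change of LYS1 was 0.69 in place of 1.13.

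Genes linked to silencing at telomeres were themselves measured beside the members. Of 33 such genes, among them the SIR genes, RAP1, RIF1, RIF2, YKU70, YKU80, DOT1 and histone deacetylases, 16 were higher and 4 lower on average, where 27.1% and 21.7% of all genes were. The 4 lower genes, named after their values were seen, were SIR2, the deacetylase of silent chromatin (-0.35 ± 0.08, edgeR adjusted p = 0.00089), NHP6B, ORC1 and SAS2 (-0.29, -0.19 and -0.19). SIR3 and SIR4 were among the 16 higher (0.25 ± 0.06 and 0.23 ± 0.05, edgeR adjusted p = 0.00097 and 0.00027). SIR1 had an average of -0.01 ± 0.06 that did not pass. Listed for reference outside the 33, SWR1 averaged 0.71 ± 0.06 (edgeR adjusted p = 5.2e-09), and HTZ1 had -0.03 ± 0.06, which did not pass. At time point 3 14 were higher and 2 lower, YKU70 (-1.02) and RPD3 (-0.25), where 28.2% and 22.9% of all genes were. RPD3 of this list is itself a member, on the left end of chromosome XIV, with an average of -0.02 ± 0.05 that did not pass. YAF9 stood at a mean of 25.9 CPM in WT and 24.1 CPM in W89A, which checks no label, since the mutant changes a residue and not the gene's level. Of 6 listed genes used by alpha cells, 5 were found, without MATALPHA1, and summed to 1027 to 6698 CPM over the 30 libraries. MF(ALPHA)1 was the highest, with medians of 2232 CPM in WT and 2556 CPM in W89A. Genes used by a cells summed to 40.5 to 92.4 CPM. These sums match the labelled mating type, while MATALPHA2, at most 1.62 CPM in WT and 1.35 CPM in W89A, does not show it by itself.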

How the data were processed

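RNA was sequenced from 30 libraries. The authors deposited raw read counts per gene for 7127 features, together with tables that compare the strains at each time point. Those tables hold the authors' log2 fold changes and adjusted p-values, per the file headers, and how they were made is not given in the sources used here. Aligner and counter are not given either. The submitters' processing notes name mm9, a mouse build, while the deposited coordinates equal yeast build R64 for each of the 227 members with a RefSeq entry. Counts in the comparison tables equalled the deposited count table in every row.

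Members are nuclear protein-coding genes of the time point 2 table with a midpoint within 20000 bases of the outermost listed boundary of their chromosome. The members and gene lists were chosen with earlier results of these data known. Counts of all features were fitted with edgeR 4.0.16 (R 4.3.3, TMM scaling, filterByExpr, robust quasi-likelihood, 10 group means, common biological coefficient of variation 0.164). Adjusted p-values are Benjamini-Hochberg values over 6256 genes with a threshold of 0.05. The average comparison weights the 5 time points equally, and the interaction is an F test of strain by time point. CPM are counts over the TMM-scaled library. The fit was tested on simulated data with known changes. Near-identical copies came from blastn 2.17.0, with at least 95% identity over at least 80% of the length. Figures were drawn with matplotlib 3.10.9 in Python 3.11.15.

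Named members are the 5 highest and 5 lowest called per time point and the 10 and 10 of the average with 1 sign throughout, at 10 CPM or more, the 10 smallest interaction p, the 4 widest WT ranges per peak, the 10 highest levels per length, and the counted families. Replicate numbers are cycle numbers, and since 7 of 15 pairs of samples that share one had deviations correlated over 0.1, and not every pair, no block was used. Alternatives were DESeq2 1.42.0, other scaling and filters, other distance limits, title order, and leaving out libraries or copies, or summing the libraries of a cycle. The 60 other columns of per-sample values were not used.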

Additional observations from a re-analysis of the deposited data

Results flagged for a closer look

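The strain difference changed between time points for 52 of the 227 tested members by the edgeR interaction test across all genes. This is 22.9%, where 41.9% of all genes passed. The adjusted p of this test was 5.61e-06 for RMD6, 1.16e-05 for MHT1, 2.91e-05 for JEN1, 3.02e-05 for LYS1 and 3.51e-05 for COX14. It was 3.71e-05 for AGP3, 5.7e-05 for NRE1, 0.000197 for MAL13, 0.000285 for MMP1 and 0.000363 for HYR1. Each of the 10 kept its call in all 12 alternatives run for it, those that left out a cycle included.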

How the results depend on the processing

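Of 145 alternative values of the counts of called members, 117 lay within 1.5 times the reported count. Of 111 results on named members, 74 kept their call under every alternative run. Among those that compare the strains at a time point or on average, 0 changed direction. The F tests of the interaction and the WT cycle have no direction that could change. At time point 1 the count of 11 became 7 with the title order of the W89A libraries, 20 with the DESeq2 test, 6 with a 15 kb limit and 18 with a 25 kb limit. With the 15 kb limit the counts of time points 2, 3 and 5 became 19, 59 and 15, and that of the W89A cycle 75. With the 25 kb limit the interaction count became 79. Without members that have a near-identical copy, an alternative chosen after seeing the data, 139 tested members were left. The counts then became 28 at time point 4, 15 at time point 5 and 66 on average (30 higher, 36 lower). Of all genes tested, 27.1% were higher and 21.7% lower on average. At time point 5 the count of 25 became 11 with the title order and 1 when the pair of W89A libraries of uncertain placement was left out. Leaving out 1 cycle of 1 strain at a time gave 1 to 15 called members at time point 1, 12 to 32 at time point 2, 81 to 91 at time point 3, 26 to 54 at time point 4 and 1 to 31 at time point 5. It gave 88 to 116 on average, 31 to 53 for the interaction, 105 to 135 for the WT cycle and 86 to 114 for the W89A cycle. The lowest counts came without WT cycle 1 at time points 1 and 2 and for the interaction, without WT cycle 3 at time point 4, and without W89A cycle 1 at time point 5. At time point 5 the count was 4 without WT cycle 1, 6 without W89A cycle 2 and 13 without WT cycle 3. At time point 1 it was 2 without W89A cycle 2, and at time point 2 it was 16 without W89A cycle 1. The cause of these shifts was not tested, apart from the fewer genes or libraries that these alternatives hold by construction. Shares of all genes called in the leave-out fits were not counted, so these shifts may not be particular to the members. With the libraries of each cycle summed, the average count was 92, and 114 members had an unadjusted p below 0.05. The replicate block, with the cycle number as a term, gave 109 calls on average, 58 for the interaction, 132 for the WT cycle and 123 for the W89A cycle, and moved no count by over 1.5 times. Of 15 pairings of samples with the same number, 7 had a correlation of deviations over 0.1, with a range of -0.313 to 0.406, so the numbers were not taken to pair the samples. Copies compared by protein sequence were not run. Most members had low counts, and smaller differences may have gone undetected. The parts of depth and of the 3 cycles per group in this limit were not tested.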
